A study of Mus musculus with 76 samples.

Results

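Pomc+ neurons of mice on high-fat diet (HFD) were compared with Pomc+ neurons of mice on chow diet (CD) across the whole transcriptome. All cells that the labels call Pomc+ were taken, 19 on HFD and 23 on CD, which are 42 of the 76 cells of the series. The other 34 cells, 15 on CD and 19 on HFD, were labelled Ghost, which means that the lineage reporter was present and the *Pomc*-driven eGFP was not. Each library is Patch-seq of 1 neuron of the hypothalamus, in which the content of a neuron is drawn into the pipette after an electrical recording and then sequenced. The mice were male and carried PomcCreERT2, tdTomato and Pomc-eGFP, although the study's methods name only the first pair of alleles for this experiment. Tamoxifen was given at 12 weeks of age, so that tdTomato marked cells with an active *Pomc* promoter at that time, and the diets began 2 weeks later. Feeding went on for 6 months, with chow low in fat or with a diet that draws most of its energy from fat. The methods give 5 mice per diet and 3 independent experiments. The labels tie no cell to a mouse or an experiment, so the cells of a diet were counted as 1 sample, no test was possible, and every difference below is a description of these 42 cells. Both reporters rest on promoter elements of *Pomc*, and Pomc+ cells were picked by eGFP, so that the level of *Pomc* itself bears on which cells were picked.

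Pomc neurons of the arcuate nucleus restrain feeding and raise energy expenditure. They make the precursor pro-opiomelanocortin, which prohormone convertases and carboxypeptidase E cut and trim inside dense-core granules to give melanocortins and beta-endorphin, and many of them also make the peptide CART from *Cartpt*. Leptin, insulin and other hormones of energy balance act on these neurons. Granins, VGF and convertase chaperones share the granules with the peptides.

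The promoters of the peptide precursors *Pomc* and *Cartpt* are shown because the comparison of the diets opens with these transcripts. Both are the 250 bases before the annotated start in RefSeq (GRCm38.p6), written 5′ to 3′ in the direction of the gene. The *Pomc* stretch lies at chr12:3954695-3954944 on the plus strand and the *Cartpt* stretch at chr13:99900684-99900933 on the minus strand.
Pomc: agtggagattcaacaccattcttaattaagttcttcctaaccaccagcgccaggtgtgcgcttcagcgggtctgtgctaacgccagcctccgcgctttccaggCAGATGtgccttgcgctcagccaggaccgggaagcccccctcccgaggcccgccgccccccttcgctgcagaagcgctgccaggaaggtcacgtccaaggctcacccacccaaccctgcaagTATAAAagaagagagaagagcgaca
Cartpt: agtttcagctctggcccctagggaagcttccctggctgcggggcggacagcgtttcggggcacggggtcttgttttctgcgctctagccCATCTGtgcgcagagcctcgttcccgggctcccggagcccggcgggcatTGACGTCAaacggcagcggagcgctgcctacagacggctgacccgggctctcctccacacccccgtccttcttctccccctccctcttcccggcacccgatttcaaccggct

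Capitals mark matches to 3 motifs searched on both strands. These were the cyclic AMP response element TGACGTCA, the TATA box TATAAA and the E-box form CATCTG, which reads CAGATG on the other strand. Other forms of the E-box were not searched and stay in lower case. *Pomc* held this E-box form at 147 to 142 bases and the TATA box at 25 to 20 bases before the start. *Cartpt* held the same E-box form at 161 to 156 bases and the cyclic AMP response element at 112 to 105 bases before the start. Of all 32851 promoters of this length, 1.55% held TGACGTCA, 12.4% held TATAAA and 14.4% held CATCTG. The shorter TGACG, which lies inside TGACGTCA, was in 17.8% of all promoters, in 10 of 24 promoters (41.7%) of 21 granule genes, in 19 of 35 promoters (54.3%) of 23 immediate early genes, and in 6 of 46 promoters (13.04%) of 38 Pomc neuron marker genes. A match is a description of the letters and says nothing about binding. Promoters were matched for 23 of 27 genes, which are *Cartpt* and the genes named by rule, and not for *Vgf*, *Zeb1*, *Ngb* and *Thra*.

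Values are counts per 1000000 counts of a cell (CPM), averaged over the cells of a diet, and a ratio is the HFD mean over the CD mean. Beside the ratio, the pair share gives the percentage of all 437 pairs of 1 HFD and 1 CD cell in which the HFD cell was higher, with ties as 0.5. Total counts ranged from 10534 to 1435547 on HFD (median 393797) and from 32151 to 1452605 on CD (median 339691). A median of 3501 genes per cell had a count on HFD and 2540 on CD, and the medians of the mitochondrial share were 1.01% and 0.769%. The gene ENSMUSG00000119584 alone took between 5.48% and 77.4% of the counts of a cell. Of 56980 genes, 10619 had at least 5 counts in at least 3 of the 42 cells and were compared. With these few cells, 2784 genes (26.2%) were at least 2-fold higher on HFD and 2156 (20.3%) at least 2-fold lower, and every count of a gene list below is read beside these shares. In any amount, 5691 genes (53.6%) were higher on HFD and 4928 (46.4%) lower. The pair share of single genes ran from 23.3% to 74.5%, so that for no gene did the cells of the diets separate. The median log2 ratio of all genes was 0.10 in CPM, 0.04 in the deposited normalized values and -0.28 with counts summed over cells.

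*Pomc* mRNA was lower in Pomc+ cells on HFD, at a mean of 3414 CPM against 11652 CPM on CD, which is 3.41-fold. On HFD the cells ran from 90.9 CPM through a median of 2206 CPM to 13989 CPM, and on CD from 0 through 6176 to 43974 CPM. The cells of the diets overlapped, and 7 of the 23 CD cells were above every HFD cell. At or above 10000 CPM there was 1 HFD cell and there were 11 CD cells, whereas below 1000 CPM there were 5 cells of each diet. The transcript was counted in 19 of 19 HFD cells (exact 95% interval 82.4% to 100%) and in 22 of 23 CD cells (95.7%, 78.1% to 99.9%). Summed counts were 28431 on HFD (exact Poisson interval 28102 to 28763) and 153314 on CD (152548 to 154083), and these intervals, like those of the shares, cover counting error only. The pair share was 31.8%. With any single cell left out the ratio stayed between 0.243 and 0.335.

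The cell numbers in the labels form 8 runs of 1 diet each, and *Pomc* differed between the runs of a diet. What a run stands for is not stated in the labels. On CD the mean was 22214 CPM in cells 630 to 632, 15607 CPM in cells 658 to 669 and 15020 CPM in cells 685 to 692, but 2053 CPM in cells 699 to 710. On HFD it was 2673 CPM in cells 638 to 654, 6707 CPM in cells 670 to 673, 1709 CPM in cell 693 and 3259 CPM in cells 714 to 719. In neighbouring runs the HFD mean was therefore 0.120, 0.430 and 0.114 of the CD mean in the first pairs and 1.59 times the CD mean in the last. The lower mean of *Pomc* on HFD thus held in 3 of 4 neighbouring pairs and was turned in the last one. In that last pair, cells 699 to 719, most genes were higher on HFD, with a median log2 ratio of all genes of 0.92. Without that pair the median of all genes was -0.20 and the *Pomc* ratio was 0.207. In Ghost cells, set beside these without a test of the difference, the mean was 3686 CPM on HFD and 6296 CPM on CD.

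**Figure D1:**
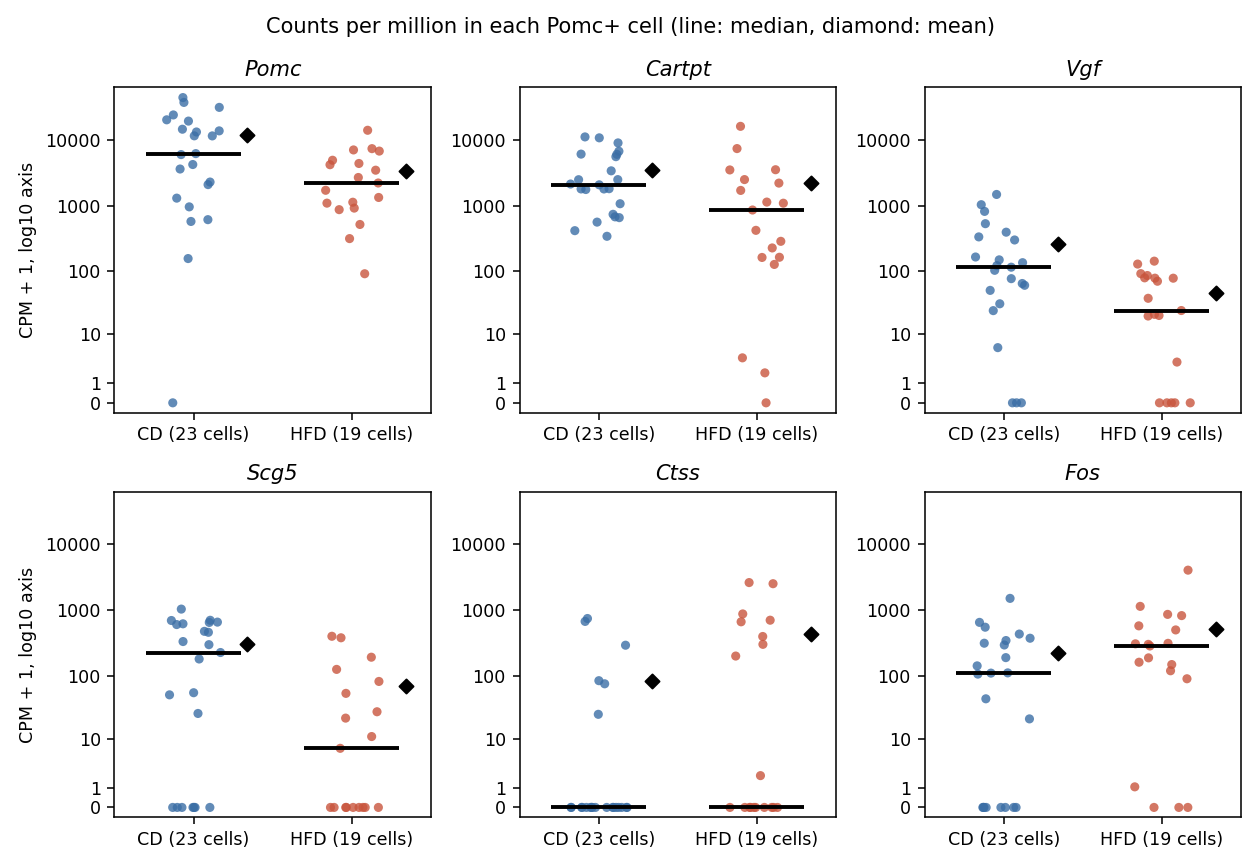
Level of 6 genes in each Pomc+ cell (y axes, CPM + 1 on a log10 axis) by diet (x axes), with 23 CD and 19 HFD cells as points, the median as a line and the mean of CPM as a diamond. The HFD cells reach less far up than the CD cells for Pomc, Vgf and Scg5, and for Ctss the medians of both diets are at 0.

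*Cartpt*, the precursor of CART, was 2172 CPM on HFD and 3447 CPM on CD, a ratio of 0.630. Its cells ran from 0 through 856 to 16055.7 CPM on HFD and from 340 through 2070 to 11086 CPM on CD. A single HFD cell, 719, held the highest value, and without it the ratio was 0.406, while in the normalized values it was 0.396 with all cells. The transcript was counted in 18 of 19 HFD and 23 of 23 CD cells. The neighbouring runs gave ratios of 0.197, 0.497, 0.749 and 2.39. Both precursors thus showed their lower HFD mean in all pairs of runs but the last.

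Of the arcuate peptide precursors other than *Pomc*, 15 of 23 listed had a count and 9 were compared, *Cartpt* among them, of which 4 were at least 2-fold higher and 4 at least 2-fold lower. *Pdyn*, the precursor of dynorphin, was 63.3 CPM on HFD and 221 CPM on CD, with a count in 8 and 11 cells. *Gal*, which gives galanin, was 23.6 and 76.1 CPM, in 4 and 9 cells. *Sst*, which gives somatostatin, was 128 and 28.4 CPM, in 7 and 6 cells. Its ratio of 4.52 was 1.80 without HFD cell 693 and 12.6 without CD cell 699. The ratios of *Pdyn* (0.287) and *Gal* (0.310) were 0.138 and 0.0756 without HFD cell 638, and 0.374 and 0.404 without CD cell 689. Each of these was counted in a minority of the cells of either diet.

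The genes of peptide processing and secretory granules were lower on HFD more often than higher. Of 24 compared, 15 were lower in any amount and 9 higher, where 46.4% and 53.6% of all genes were, 7 (29.2%) were at least 2-fold lower and 2 (8.33%) at least 2-fold higher, and the median log2 ratio was -0.51 against 0.10 over all genes. The summed level of the list ran from 299 through 2755 to 7340 CPM on HFD and from 58.7 through 3192 to 12773 CPM on CD, so that most cells overlapped. In cells 699 to 719 alone the median log2 ratio of the list was 0.89, which is of the other sign, and without them it was -0.94. The medians of all genes were 0.92 in these cells and -0.20 without them, so the list lay near all genes in these cells.

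*Vgf*, a granule protein and peptide precursor, was 46.2 CPM on HFD and 260 CPM on CD, 5.63-fold lower, the lowest ratio of the list among genes counted in at least 10 cells. Its cells ran from 0 through 24.3 to 142 CPM on HFD and from 0 through 115 to 1476 CPM on CD. It was counted in 14 of 19 HFD cells (73.7%, 48.8% to 90.9%) and in 20 of 23 CD cells (87.0%, 66.4% to 97.2%), with 448 and 2513 counts in all. With each cell thinned to 40000 counts, it was counted in 10 of 18 HFD cells (55.6%) and 18 of 21 CD cells (85.7%). The pair share was 27.3%, and with any single cell left out the ratio stayed between 0.157 and 0.226. *Vgf* was lower on HFD in all 4 pairs of neighbouring runs, with ratios of 0.338, 0.0552, 0 and 0.473, where 0 stands for no count in cell 693. That cell is the only HFD cell of its pair and had 10534 counts in all, few for a gene at this level. In the second pair *Vgf* was counted in 1 of 3 HFD cells. In Ghost cells the ratio of HFD to CD was 0.338.

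*Scg5*, the chaperone of the convertase encoded by *Pcsk2*, was 68.3 CPM on HFD and 307 CPM on CD, and its median was 6.93 against 226 CPM. It was counted in 10 of 19 and 16 of 23 cells, and it was lower in the first pairs of runs (0.0697, 0.246 and 0) and higher in the last (2.47). The 0 is again that of cell 693 alone. *Atp6ap1*, an accessory subunit of the proton pump that acidifies granules, was 58.5 and 301 CPM, counted in 8 and 16 cells. The granins *Scg2* and *Chgb*, named after their values were seen, were 264 against 710 CPM and 46.2 against 187 CPM. Of the enzymes that make the mature peptides, *Cpe*, *Pcsk1* and *Pam* had lower means on HFD and *Pcsk2* a slightly higher one. *Cpe*, carboxypeptidase E, was 511 and 778 CPM, *Pcsk1*, the first convertase, 32.7 and 60.2 CPM in 5 and 9 cells, and *Pcsk2* 51.4 and 44.6 CPM in 5 and 8 cells. *Pam*, which amidates peptides, was 27.1 and 65.7 CPM in 8 and 10 cells. The ratio of *Pcsk2* was 0.599 without HFD cell 638, *Pcsk1* went from 0.544 to 0.363 without HFD cell 719 and to 0.848 without CD cell 658, and *Pam* from 0.413 to 0.227 without HFD cell 638 and to 0.809 without CD cell 686. At the other end of the list, *Ptprn2*, a granule membrane protein, had a ratio of 1.64 and *Cadps*, which acts in granule release, one of 1.82.

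Within CD, cells with more *Pomc* had more *Vgf* and *Scg5*, with Spearman correlations of 0.78 for both over 23 cells. Within HFD the same correlations over 19 cells were 0.02 for *Vgf* and 0.28 for *Scg5*. *Pomc* and *Cartpt* went together on both diets, with 0.77 on CD and 0.75 on HFD. Genes of 1 cell share its library, its depth and its run, and the differences between the diets were not tested.

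**Figure D2:**
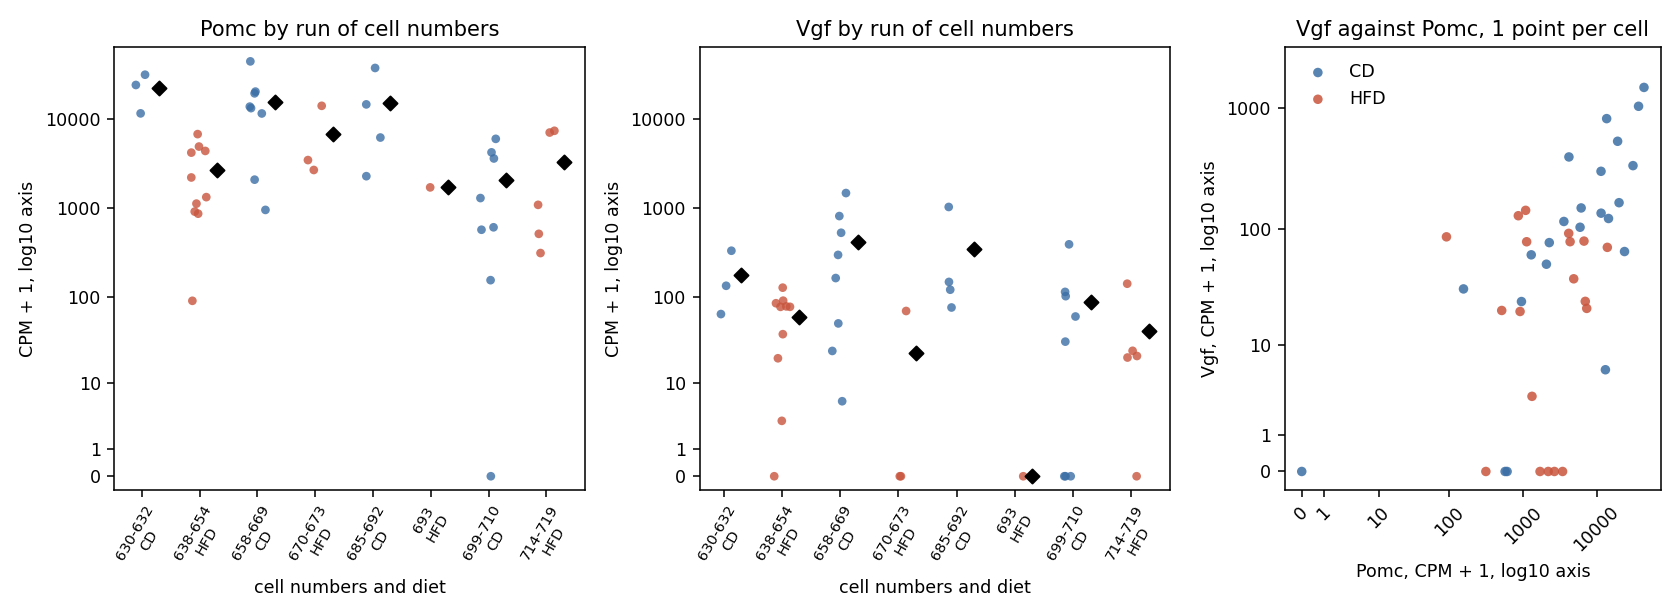
Left and middle, Pomc and Vgf in each Pomc+ cell (y axis, CPM + 1 on a log10 axis) by run of consecutive cell numbers (x axis), coloured by diet, with the mean of each run as a diamond. Right, Vgf against Pomc on the same scale, where the CD cells lie along a slope (Spearman 0.78, 23 cells) and the HFD cells do not (0.02, 19 cells).

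Markers of Pomc neurons were taken from the study's own list of 43 genes, which was chosen by its authors and is no independent evidence of a direction. Of 41 compared, 29 were lower and 12 higher in any amount, against 46.4% and 53.6% of all genes, 13 (31.7%) at least 2-fold lower and 6 (14.6%) at least 2-fold higher, with a median log2 ratio of -0.50. In cells 699 to 719 alone this median was 0.00, where that of all genes was 0.92. The transcription factor gene *Nhlh2* was 10.1 CPM on HFD and 75.3 CPM on CD, counted in 6 and 10 cells. *Hs6st2*, a sulfotransferase of heparan sulfate, was 21.4 and 145 CPM, counted in 6 and 15 cells, and its highest cells were at 231 and 494 CPM. *Tbx3*, a transcription factor of Pomc neuron identity, was 22.2 and 57.1 CPM, in 9 and 13 cells, and *Isl1*, another, was 96.0 and 99.2 CPM, in 9 and 14 cells. *Pon2*, a paraoxonase, and *Gpr101*, an orphan receptor, were 2.11-fold and 2.63-fold higher on HFD, in 7 and 6 cells against 10 and 7. Without HFD cell 639 these ratios were 0.814 and 1.07, and in the normalized values 1.16 and 1.47. That of *Gpr101* was 5.20 without CD cell 686, and the *Nhlh2* ratio of 0.135 was 0.0399 without HFD cell 673 and 0.213 without CD cell 701. The genes *Eda* and *Il1rapl2* were too low to compare, with counts in 1 HFD cell and 2 CD cells.

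General neuronal markers had a median log2 ratio of -0.09 in CPM and -0.56 in the normalized values over 16 genes, of which 1 was at least 2-fold higher and 2 at least 2-fold lower. *Thy1*, a surface protein of neurons, had a ratio of 3.55 (2.66 without HFD cell 644 and 5.54 without CD cell 658). In contrast, *Syt1*, the calcium sensor of transmitter release, had one of 0.344 (0.209 without HFD cell 642 and 0.459 without CD cell 710). The summed level of these markers had a median of 4261 CPM on HFD and 5651 CPM on CD, so that most but not all cells carried a clear neuronal signal. HFD cells 650 and 718 had 251 and 985 CPM, against 11491 and 17387 CPM of the microglial markers described below. HFD cells 639 and 714 and CD cells 685 and 704 also had more of the microglial than of the neuronal markers. CD cell 706 had no count of a neuronal marker. *Gad1*, which makes GABA, was 133 CPM on HFD and 257 CPM on CD in 8 and 12 cells, and *Slc17a6*, the vesicular glutamate transporter, was 23.5 and 28.99 CPM in 5 cells of each diet. The *Slc17a6* ratio of 0.810 was 0.329 without HFD cell 651 and 1.78 without CD cell 686, and the *Gad1* ratio of 0.517 was 0.227 in the normalized values.

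Receptors for the hormones and transmitters that reach Pomc neurons were sparse. Of 37 listed, 21 were compared, 6 at least 2-fold higher and 7 at least 2-fold lower, and the median log2 ratio was 0.22 in CPM but -0.39 with counts summed over cells. *Lepr*, the leptin receptor, was counted in 2 HFD and 4 CD cells (3.25 and 19.6 CPM), and *Insr*, the insulin receptor, in 4 and 6 cells (18.1 and 15.5 CPM). The *Lepr* ratio of 0.166 rested on 38 and 287 counts and was 0.506 in the normalized values. That of *Insr*, 1.16, was 0.554 without HFD cell 654 and 1.77 without CD cell 632. *Npy2r*, a receptor of neuropeptide Y, had a ratio of 0.352 and *Oprl1*, the nociceptin receptor, one of 0.338, and without HFD cell 672 these were 0.147 and 0.0377. Without CD cell 630 that of *Oprl1* was 0.531, and without CD cell 707 that of *Npy2r* was 0.487. *Gabbr2*, a subunit of the GABA-B receptor, had a ratio of 5.54, which was 3.86 without HFD cell 670 and 11.3 without CD cell 701. Of the receptors and intracellular parts of leptin and insulin signalling, 38 genes were compared, with 9 (23.7%) at least 2-fold higher and 8 (21.1%) at least 2-fold lower, near the shares of all genes. Their median log2 ratio was -0.21 in CPM and 0.05 in the normalized values. *Ptpn1*, a phosphatase that dampens both pathways, had a ratio of 4.11 (6 and 4 cells) and *Foxo3*, a transcription factor held back by insulin, one of 0.116 (4 and 6 cells). *Ptpn1* was 2.02 without HFD cell 644 and 7.65 without CD cell 658, and *Foxo3* 0.0551 without HFD cell 719 and 0.187 without CD cell 686.

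Immediate early genes, which neurons switch on within minutes of activity, were higher on HFD. Of 29 listed, 22 were compared, and of these 18 were higher and 4 lower in any amount, against 53.6% and 46.4% of all genes, 11 (50%) at least 2-fold higher and 1 (4.55%) at least 2-fold lower. Their median log2 ratio was 0.996 in CPM and 0.926 in the normalized values, but 0.20 with counts summed over cells. The summed level of the list ran from 38.97 through 1161 to 10808 CPM on HFD and from 0 through 532 to 4473 CPM on CD. Without the last pair of runs, cells 699 to 719, the median log2 ratio was 0.07, and within these cells alone it was 3.34. The medians of all genes were -0.20 and 0.92. Cells were recorded before they were collected, and how long each recording took is not in the labels.

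*Fos*, a subunit of the AP-1 factor that was named after its values were seen, was 520 CPM on HFD and 226 CPM on CD. Its cells ran from 0 through 285 to 4065 CPM on HFD and from 0 through 109 to 1512 CPM on CD. It was counted in 16 of 19 and 15 of 23 cells. HFD cell 638 held the highest value, and without it the ratio of 2.30 became 1.43. The neighbouring runs gave ratios of 1.4995, 1.41, 3.61 and 2.35. In the first pair, which holds cell 638, the medians went the other way, at 119 CPM on HFD and 374 CPM on CD. In the other pairs the HFD median was the higher one. The third ratio rests on HFD cell 693 alone, which had 10534 counts. *Egr1*, a transcription factor of the same group, was 286 and 74.1 CPM, in 13 and 9 cells. Its ratio of 3.86 was 2.86 without HFD cell 638 and 6.60 without CD cell 662. *Btg2*, which slows cell division, was 97.1 and 4.10 CPM in 6 and 4 cells. *Jun* and *Jund*, which pair with *Fos*, had ratios of 0.830 and 0.970. Without CD cell 662 that of *Jun* was 1.32, and the *Btg2* ratio of 23.7 was 15.1 without HFD cell 645, 53.7 without CD cell 630 and 9.26 in the normalized values. *Arc*, a postsynaptic gene, was counted in 3 of 19 HFD cells and in 0 of 23 CD cells, which allows a share of up to 13.04% (3 of 23).

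**Figure D3:**
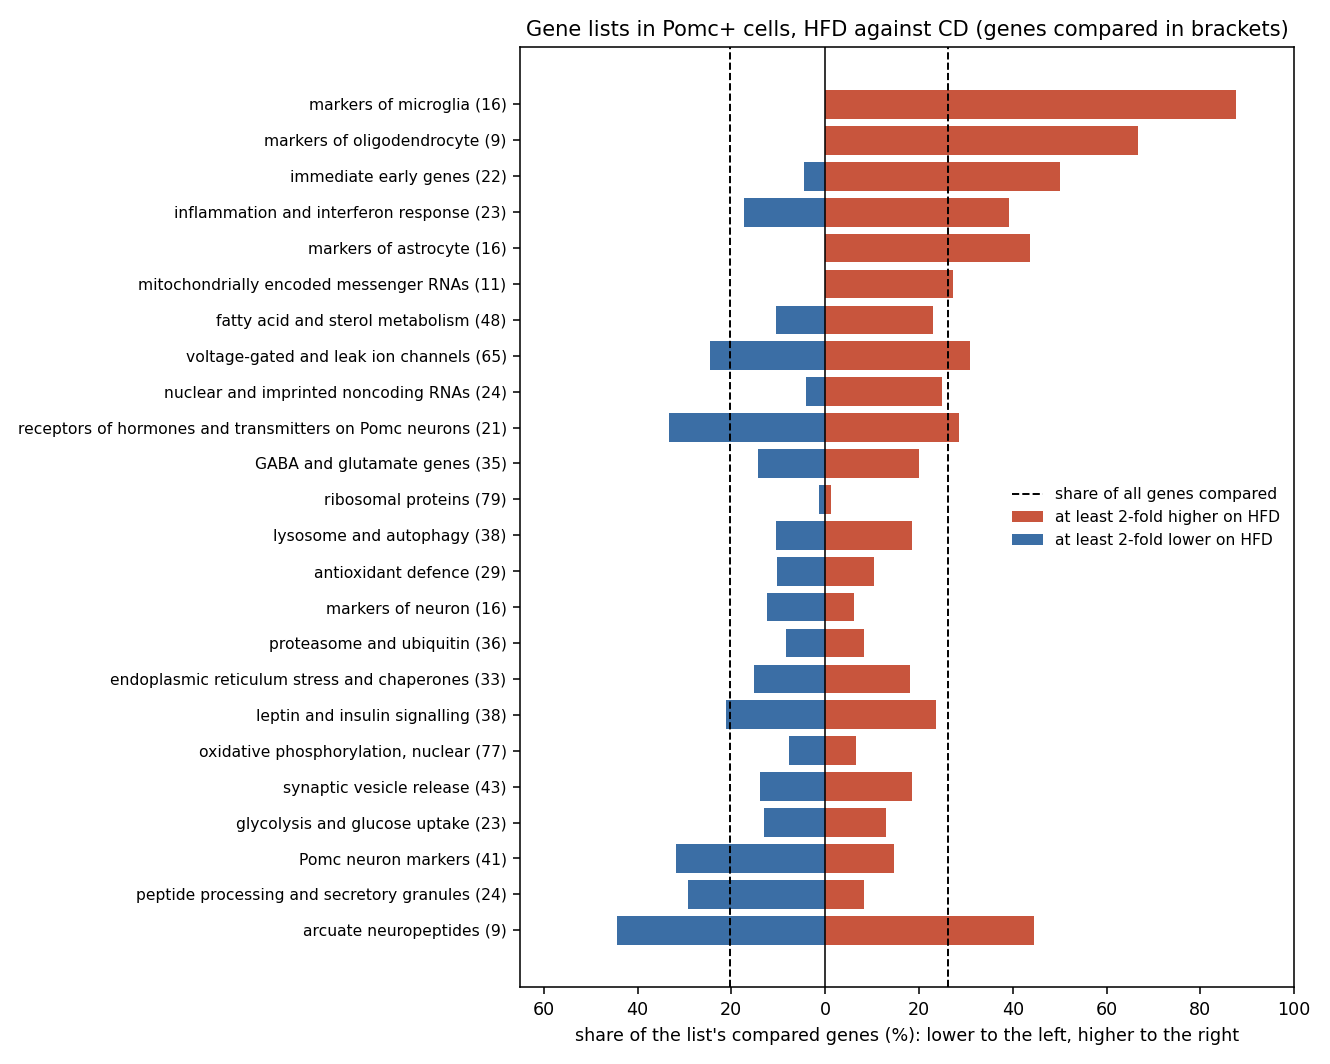
Share of the compared genes of each list (x axis, percent) that were at least 2-fold higher (1 colour) or lower (the other colour) on HFD, with dashed lines at 26.2% and 20.3%, the shares over all 10619 genes. Beyond the higher line lie markers of microglia (87.5%) and oligodendrocytes (66.7%), immediate early genes (50%), arcuate neuropeptides (44.4%), astrocyte markers (43.75%) and inflammation genes (39.1%). Ion channels (30.8%), receptors (28.6%) and mitochondrial messenger RNAs (27.3%) lie just beyond it. Beyond the lower line lie arcuate neuropeptides (44.4%), receptors (33.3%), Pomc markers (31.7%), granule genes (29.2%, with 8.33% higher), ion channels (24.6%) and leptin and insulin signalling (21.1%).

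Genes with the largest spread between the diets were chosen by the pair share, so that their values are a description. Candidates were counted in at least 10 cells of 1 diet, differed at least 2-fold and kept their direction with any cell left out and in the normalized values, which 241 genes did upwards and 311 downwards. The 12 highest had pair shares of 71.2% to 74.5% and ratios of 2.32 to 16.6. The 12 lowest had pair shares of 26.8% to 29.4% and were 2.54-fold to 24.4-fold lower.

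Among the 12 highest, *Thra*, the alpha receptor of thyroid hormone, was 252 CPM on HFD and 64.96 CPM on CD. Its cells ran from 0 through 138 to 1256 CPM and from 0 through 30.95 to 225 CPM, counted in 17 of 19 and 16 of 23 cells. *Evl*, a regulator of actin filaments, had a ratio of 3.85, with medians of 51.2 and 1.63 CPM. *Ngb*, neuroglobin, an oxygen-binding protein of neurons, had a ratio of 3.98 and was counted in 14 and 9 cells, with medians of 169 and 0 CPM. *Dpy30*, a subunit of histone methyltransferase complexes, had the highest pair share and a ratio of 11.98, in 14 and 6 cells. Its ratio was 3.08 without HFD cell 693 and 20.99 without CD cell 632, and that of *Ngb* was 2.24 without cell 693.

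The other genes of this set have varied roles. *Top2b*, a topoisomerase, had a ratio of 13.8 and *Zeb1*, a zinc-finger transcription factor, one of 9.96. *Tpm3*, a tropomyosin, had a ratio of 2.32 and *Ndel1*, a regulator of dynein, one of 2.48 that was 1.04 in the normalized values. *Phb2*, a prohibitin of mitochondria, had a ratio of 2.49, *Akr7a5*, an aldo-keto reductase, one of 8.44, and *Hspa12a*, of the heat shock protein family, one of 16.6. *Hba-a2*, an alpha globin gene, had a ratio of 9.41, in 12 and 5 cells. Single cells set much of these ratios. Without HFD cell 693 that of *Hba-a2* was 2.96, and without HFD cell 650 that of *Hspa12a* was 10.95. Without 1 HFD cell it was 6.07 for *Akr7a5* (cell 719), 7.42 for *Zeb1* (cell 650) and 1.73 for *Ndel1* (cell 644). Leaving out the CD cell that mattered most gave 27.7 for *Akr7a5* (cell 707), 23.2 for *Zeb1* (cell 667), 30.2 for *Hspa12a* (cell 686), 14.8 for *Hba-a2* (cell 699) and 4.004 for *Ndel1* (cell 660). In neighbouring runs *Evl*, *Ndel1*, *Thra*, *Tpm3* and *Hba-a2* were higher on HFD in all 4 pairs, and 11 of the 12 in 3 or more. The genes were chosen from these same cells, so agreement between runs is in part built in, and its share over all genes was not computed. In 1 pair HFD is cell 693 alone, which had 10534 counts. In Ghost cells 9 of the 12 were also higher on HFD, where 49.3% of all genes were, and the difference between the labels was not tested.

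*Hba-a2* shares most of its sequence with *Hba-a1*, which had a ratio of 8.65 in 11 and 5 cells, so the split of reads between this pair is uncertain. The beta globin *Hbb-bs* had a ratio of 3.95, in 8 cells of each diet. This ratio was 2.99 without HFD cell 716 and 18.05 without CD cell 701. That of *Hba-a1* was 6.76 without HFD cell 716 and 16.8 without CD cell 699. *Alas2*, which makes haem in red cells, was counted in 1 HFD and 2 CD cells. These 3 genes were added after the values of *Hba-a2* were seen, and the part of red cell RNA in them was not tested.

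The 12 lowest included *Vgf* and *Scg5*, both described above. *Sec62*, which brings proteins into the endoplasmic reticulum, was 2.54-fold lower on HFD, counted in 13 and 20 cells. *H13*, the signal peptide peptidase of the same membrane, was 12.5-fold lower, in 4 and 13 cells. *Cnpy2*, a protein of the endoplasmic reticulum, was 4.63-fold lower, in 5 and 15 cells, and *Atp6ap1* was 5.15-fold lower. *Aplp2*, a relative of the amyloid precursor, was 3.69-fold lower, in 8 and 17 cells.

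*Ipo5*, an importin that carries proteins into the nucleus, showed the lowest ratio of the 12. It was counted in 7 HFD and 15 CD cells, ran from 0 through 0 to 36.4 CPM on HFD and from 0 through 57.2 to 1501 CPM on CD, and was 24.4-fold lower. *Hs6st2*, a Pomc neuron marker, was 6.74-fold lower. *Tomm70a*, an import receptor of mitochondria, was 5.76-fold lower, *Polr1d*, a subunit of RNA polymerases, 5.88-fold and *Snhg8*, a noncoding host of a small nucleolar RNA, 8.14-fold. The *Ipo5* ratio of 0.0410 was 0.0619 without CD cell 710. Without 1 HFD cell the ratio was 0.0195 for *H13* (cell 638), 0.0678 for *Hs6st2* (cell 654), 0.0691 for *Snhg8* (cell 647), 0.113 for *Tomm70a* (cell 644) and 0.131 for *Cnpy2* (cell 719). Without 1 CD cell it was 0.0924 for *H13* (cell 663), 0.167 for *Hs6st2* (cell 660), 0.143 for *Snhg8* (cell 662), 0.210 for *Tomm70a* (cell 701) and 0.247 for *Cnpy2* (cell 692). In neighbouring runs 9 of the 12 were lower on HFD in all 4 pairs, and *Cnpy2*, *Atp6ap1* and *Scg5* in 3. These genes too were chosen from these same cells, so this agreement is in part built in. In 1 of the pairs HFD is cell 693 alone, which had 10534 counts and none of them in these 12 genes. In Ghost cells 5 of the 12 were lower on HFD, where 49.6% of all genes were.

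**Figure D4:**
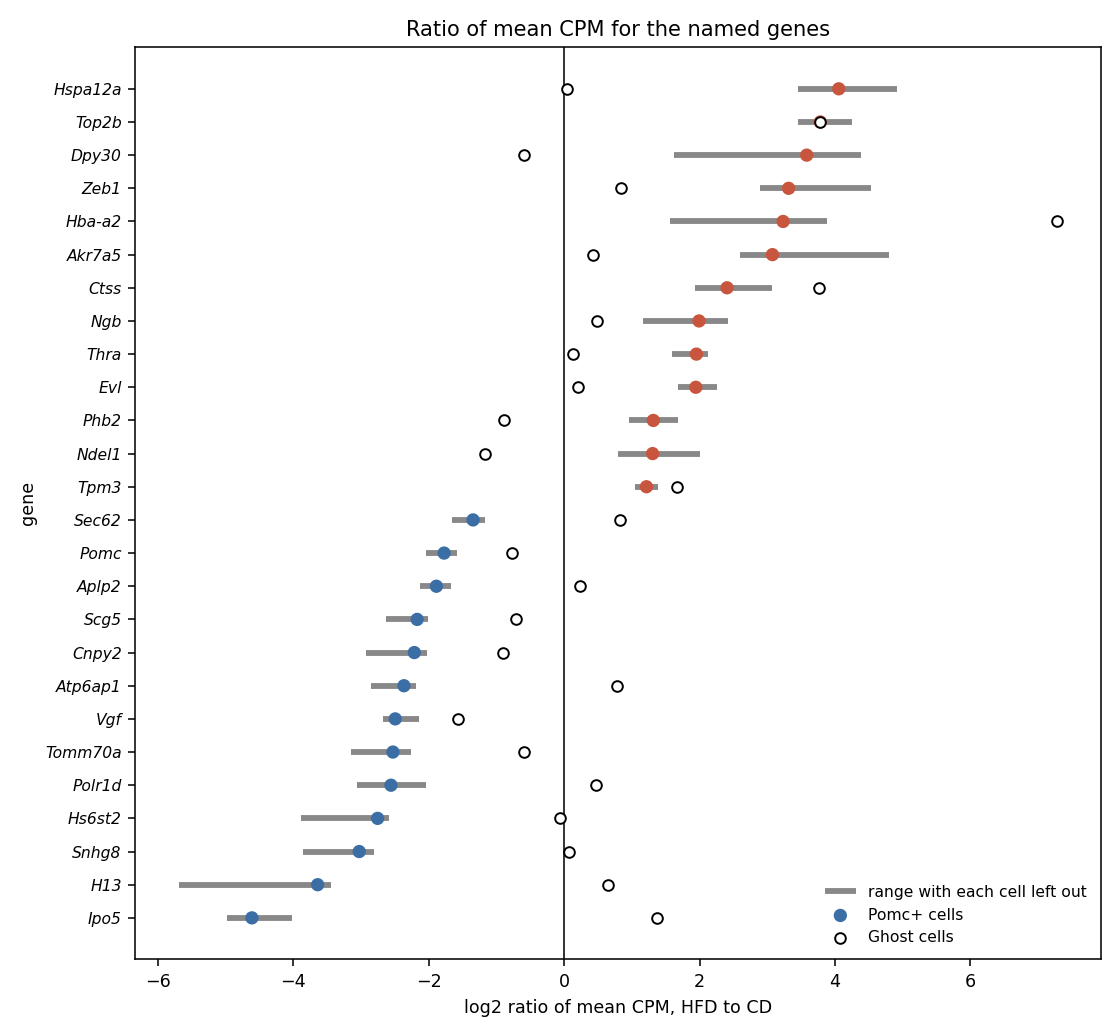
Ratio of HFD to CD mean CPM (x axis, log2 scale) of the 24 genes named by pair share and of Pomc and Ctss in Pomc+ cells as filled points, with the range over leaving out each cell as a bar, and in Ghost cells as open points. Of the 12 highest genes 9 lie on the same side in Ghost cells, and of the 12 lowest genes 5 do.

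Markers of microglia, the macrophages of the brain, were higher in the Pomc+ cells on HFD. Of 20 listed, 19 had a count in the Pomc+ cells and 16 were compared, all 16 higher and 14 (87.5%) at least 2-fold. *Csf1r*, *Tmem119* and *Itgam* had counts in 2 HFD cells each and in no CD cell, and *Mrc1* had none. A gene that is counted mostly in 1 diet passes the filter through that diet, so the summed level of all 20 is the better description. It ran from 0 through 400 to 17387 CPM on HFD and from 0 through 79.4 to 3720 CPM on CD, with means of 2388 and 473 CPM. A count of at least 1 of the 20 genes was present in 15 of 19 HFD and 18 of 23 CD cells. In Ghost cells the median was 835 CPM on HFD and 40.6 CPM on CD.

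*Ctss*, a lysosomal protease that microglia express strongly, was 437 CPM on HFD and 82.5 CPM on CD, a ratio of 5.30. Its median was 0 on both diets, and its highest cells were at 2631 CPM (HFD cell 639) and 746 CPM (CD cell 701). It was counted in 9 of 19 HFD cells (47.4%, 24.4% to 71.1%) and in 6 of 23 CD cells (26.1%, 10.2% to 48.4%), and these intervals overlap. The pair share was 63.2%. With single cells left out the ratio ran from 3.82 to 8.36, the latter without CD cell 701. In cells thinned to 40000 counts it was counted in 8 of 18 HFD (44.4%) and 4 of 21 CD cells (19.05%). In Ghost cells *Ctss* was 452 CPM on HFD and 33.4 CPM on CD.

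The other microglial genes lay in a few cells. *C1qa* and *C1qc*, subunits of complement C1q, had ratios of 4.36 and 9.31, and *Aif1*, an actin-binding protein of microglia, one of 2.38. Without HFD cell 650 the ratio of *Aif1* was 0.818, that of *C1qa* 2.86 and that of *C1qc* 6.49. Without 1 CD cell it was 10.3 for *C1qa* (cell 685), 16.6 for *C1qc* (cell 686) and 3.71 for *Aif1* (cell 704). *P2ry12*, a purine receptor by which microglia are told apart, was counted in 5 of 19 HFD cells and in 0 of 23 CD cells, which allows a share of up to 13.04% (3 of 23). *P2ry13* was counted in 4 HFD cells and no CD cell. At least 5 of the 20 genes were counted in 6 of 19 HFD cells and 3 of 23 CD cells, and HFD cell 718 had 19 of them. Without these 9 cells, an alternative added after the data were seen, the median log2 ratio of the list was 0.51 in place of 2.33. The cells were picked by the genes of this same list, so a fall of its median is built in.

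**Figure D5:**
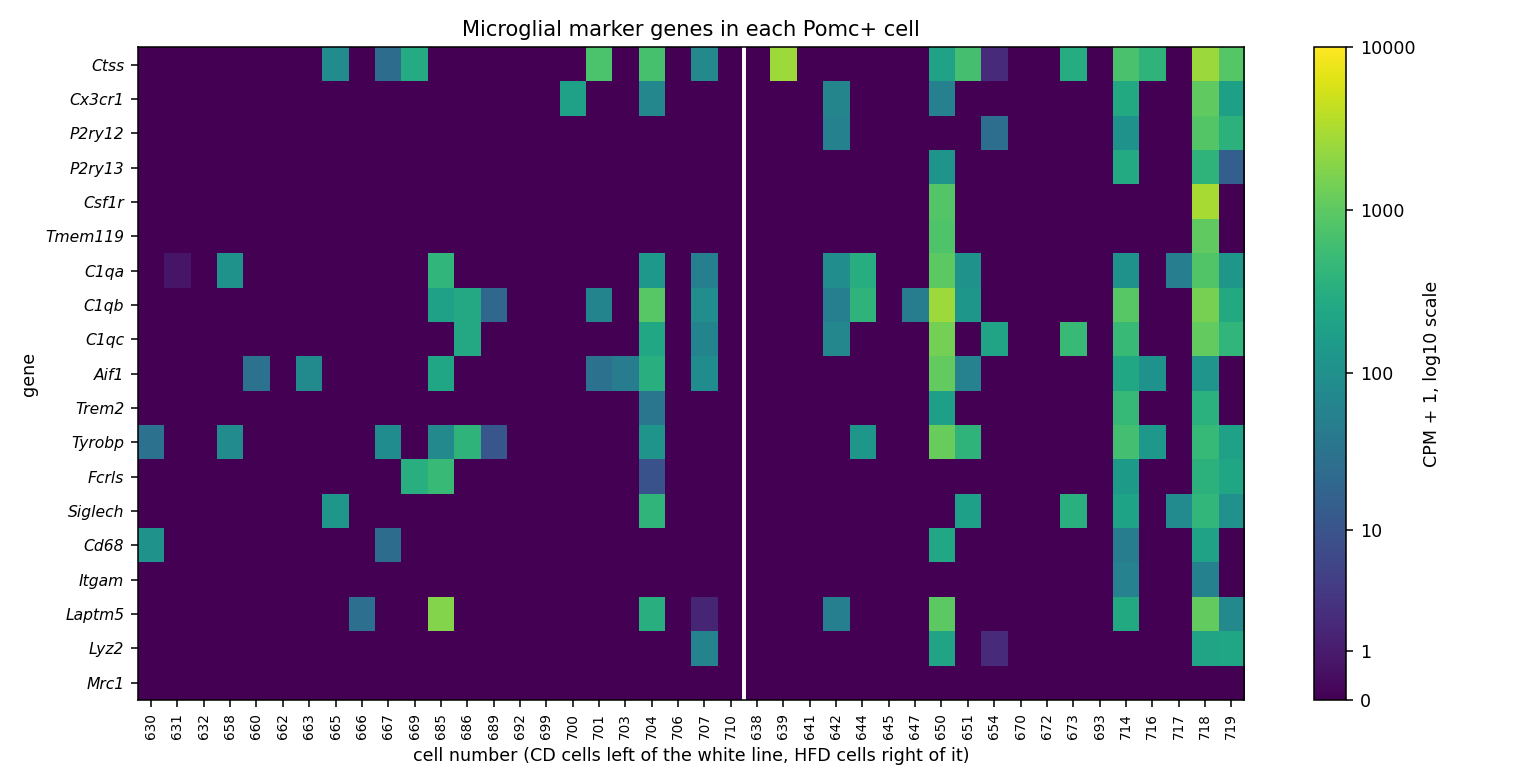
Level of 19 of the 20 microglial marker genes (y axis) in each of the 42 Pomc+ cells (x axis, by diet and cell number), coloured by CPM + 1 on a log10 scale. Counts of many of these genes together are seen in 6 HFD and 3 CD cells, among them cell 718.

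By mean CPM, most markers of other glia lay in the same direction. Of 16 astrocyte markers, 12 were higher, 7 at least 2-fold, and their summed level had a median of 1334 CPM on HFD and 636 CPM on CD. *Glul*, glutamine synthetase, had a ratio of 3.30 (1.77 in the normalized values) and *Agt*, angiotensinogen, one of 0.670 (0.195 without HFD cell 650 and 1.502 without CD cell 689). Of 15 oligodendrocyte markers 9 were compared, 7 higher and 6 of them at least 2-fold, and the summed level had a median of 267 CPM on HFD and 178 CPM on CD. The share of cells went the other way, with a count of at least 1 of these markers in 15 of 19 HFD and 22 of 23 CD cells. HFD cell 651 held the highest summed level, 6164 CPM. *Mobp* and *Mbp*, both genes of myelin, had ratios of 24.04 and 2.49, which were 9.06 and 1.54 without HFD cell 651. Without CD cell 663 that of *Mobp* was 37.04, and without HFD cells 638 to 654 that of *Mbp* was 0.908. Without the 9 cells with many microglial genes, the median log2 ratios of the astrocyte and oligodendrocyte lists were 0.14 and -0.33, in place of 0.68 and 1.32. Of the lists for oligodendrocyte precursors, tanycytes, vessels and AgRP neurons, 0, 2, 1 and 2 genes could be compared. The part of RNA from neighbouring cells in any difference between the diets was not tested.

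Inflammation genes were sparse. Of 52 listed, 23 were compared, 9 (39.1%) at least 2-fold higher and 4 (17.4%) at least 2-fold lower, with a median log2 ratio of 0.75 in CPM, 0.22 in the normalized values and 0.14 with counts summed over cells. Without HFD cells 714 to 719 it was -0.13. *Rela*, a subunit of NF-kB, had a ratio of 6.97, in 7 and 3 cells, and *Nfkbia*, its inhibitor, one of 4.90, in 9 and 4 cells. *H2-D1*, an antigen-presenting protein, and *Serpina3n*, a protease inhibitor that is also on the Pomc marker list, had ratios of 0.716 and 0.637. The *Rela* ratio was 2.65 without HFD cell 650 and 13.9 without CD cell 667. That of *Serpina3n* was 0.391 without HFD cell 639 and 0.771 without CD cell 665. Without the 9 cells with many microglial genes, the median of the list was -0.28. Without the same cells the median log2 ratios were -0.75 for granule genes, -0.40 for Pomc markers and 0.74 for immediate early genes.

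Messenger RNAs encoded by mitochondrial DNA were higher on HFD, all 11 of those compared of 13, where 53.6% of all genes were, with 3 (27.3%, near the 26.2% of all genes) at least 2-fold higher and a median log2 ratio of 0.66. *mt-Nd1* and *mt-Nd3*, subunits of complex I, had ratios of 2.14 and 3.24 (1.198 without HFD cell 693, and 0.712 within cells 699 to 719), and *mt-Cytb*, of complex III, one of 1.21. The summed level of the list had a median of 3987 CPM on HFD and 3156 CPM on CD. Without the cells with many microglial genes the median log2 ratio was 0.10, where that of all genes was 0.05. The 77 nuclear genes of oxidative phosphorylation gave a median of -0.25 in CPM and -0.70 in the normalized values, with 5 (6.49%) at least 2-fold higher and 6 (7.79%) at least 2-fold lower, smaller shares than among all genes in both directions. *Cox6a1*, of complex IV, had a ratio of 0.381 and *Uqcrc1*, of complex III, one of 2.38, which was 1.32 without HFD cell 639.

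Lipid genes, which handle fatty acids and sterols, were compared for 48 of 57, with 11 (22.9%) at least 2-fold higher, 5 (10.4%) at least 2-fold lower and a median log2 ratio of 0.43 in CPM but -0.21 with counts summed over cells. *Fads1*, a fatty acid desaturase, had a ratio of 16.5 (7 and 8 cells) and a pair share of 55.1%, and its ratio was 5.81 without HFD cell 639 and 26.1 without CD cell 630. *Srebf1*, a transcription factor of lipid synthesis, had a ratio of 0.116 (5 and 7 cells) and *Acsl4*, an acyl-CoA synthetase, one of 0.204 (2 and 9 cells). Without HFD cell 718 these were 0.0721 and 0.0827. Without CD cell 667 that of *Srebf1* was 0.170, and without CD cell 710 that of *Acsl4* was 0.518. Without the cells with many microglial genes this median was 0.06. Of 23 glycolysis genes 3 were at least 2-fold higher and 3 at least 2-fold lower, with a median of -0.29 in CPM and -0.84 in the normalized values.

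Ion channels were compared for 65 genes, 20 (30.8%) at least 2-fold higher and 16 (24.6%) at least 2-fold lower, both slightly above the shares of all genes, with a median log2 ratio of 0.40 in CPM but -0.33 with counts summed over cells. *Kcnq3*, a subunit of the M-type potassium channel, had a ratio of 14.7 and was counted in 10 HFD and 3 CD cells, and *Cacna1d*, an L-type calcium channel, one of 7.64, in 8 and 4 cells. *Kcna6*, a potassium channel, had a ratio of 0.0668 and *Scn2b*, a sodium channel subunit, one of 0.187. Without 1 HFD cell the ratio was 7.94 for *Kcnq3* (cell 693), 4.59 for *Cacna1d* (cell 654), 0.0442 for *Kcna6* (cell 638) and 0.119 for *Scn2b* (cell 716). Without 1 CD cell it was 40.5 for *Kcnq3* (cell 667), 0.238 for *Kcna6* (cell 710) and 0.357 for *Scn2b* (cell 686). Of 43 genes of synaptic vesicle release, 8 were at least 2-fold higher and 6 lower, with a median of -0.26. *Cplx1*, complexin, had a ratio of 0.0681, whereas *Rims1*, a scaffold of the active zone, and *Stx3*, a syntaxin, had 3.01 and 3.47. *Cplx1* was 0.0237 without HFD cell 719 and 0.203 without CD cell 662, and *Stx3* 1.37 without HFD cell 654 and 5.86 without CD cell 632. The 35 genes of GABA and glutamate had 7 higher and 5 lower by the same measure and a median of 0.10.

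The direction or size of the housekeeping lists depended on the scaling. Ribosomal protein genes had a median log2 ratio of 0.09 over 79 genes, of which 1 was at least 2-fold higher and 1 lower, but -0.53 in the normalized values. Proteasome and ubiquitin genes (36) had a median of -0.09 and antioxidant genes (29) one of -0.02, which were -0.63 and -0.72 in the normalized values, each with 3 at least 2-fold higher and 3 lower. Genes of endoplasmic reticulum stress (33) had a median of -0.16, and of -0.61 in the normalized values, with 6 higher and 5 lower. Lysosomal and autophagy genes (38) had a median of 0.06, with 7 higher and 4 lower, but -0.48 in the normalized values. Nuclear and imprinted noncoding RNAs (24) had a median of 0.28, and of 0.76 in the normalized values, with 6 at least 2-fold higher and 1 lower.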

How the data were processed

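The authors prepared cDNA from single Patch-seq cells and deposited 1 table of raw counts and 1 table of normalized values. The deposited counts are whole numbers of reads per gene and cell, and no molecular identifiers are described. The deposited normalized signal is each count divided by 1 size factor per cell. The submitters' processing notes name cutadapt 2.10, STAR 2.7.5a, DESeq2, GRCm38 and mm10, and the annotation is not given in the sources used here.

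From the raw counts, CPM, ratios of mean CPM, pair shares, shares of cells with a count (exact Clopper-Pearson intervals, 95%) and summed counts (exact Poisson intervals) were computed with Python 3.11.15, pandas 2.3.3, NumPy 2.4.6 and SciPy 1.17.1. A gene without a count in 1 diet entered a list's median at a floor of 3 counts over that diet. The limit that a count in 0 cells allows is 3 divided by the number of cells, which is not the bound of the exact interval. Intervals and limits cover counting error only. Genes with fewer than 5 counts in all but 2 of the 42 cells were left out, and no cell was. Cells had been patched singly, and doublets were not searched for. Because no mouse is named in the labels, each diet was 1 sample and no count model was used. The scripts were tested on simulated data.

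Named genes were *Pomc*, *Vgf* and *Ctss*, the 12 genes at either end of the pair share among those that have a symbol, without mt-, Rps, Rpl, Gm-number and Rik names, and pass the conditions given in the report, and for the lists shown by example 2 members from each end of the ratios, taken from those that 10 or more of the 42 cells counted. Some members picked by this rule are not reported here. The other genes described were named after their values were seen. Members, lists and rules were chosen with earlier results of these data known. Alternatives were another scaling, summed counts, thinning to 40000 counts, other filters, a minimum of 1000 genes per cell, and leaving out cells or runs of cells.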

Additional observations from a re-analysis of the deposited data

How the results depend on the processing

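No paired analysis was possible because the labels tie no cell to a mouse or an experiment. Leaving out each cell in turn gave 2491 to 3085 genes at least 2-fold higher and 2052 to 2589 at least 2-fold lower, and ratios of 0.243 to 0.335 for *Pomc*, 0.157 to 0.226 for *Vgf* and 3.82 to 8.36 for *Ctss*. The Pomc marker median ran from -0.78 to -0.32. With a filter of at least 5 counts in at least 10 cells, which leaves fewer genes to compare, 782 genes were higher and 606 lower. The *Ctss* ratio was 8.84 in thinned cells, 16.3 without CD cells 699 to 710 and 3.29 without HFD cells 714 to 719. Thinned, *Pomc* was counted in 100% of CD cells, since the shallowest cells were left out.

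Among alternatives chosen after seeing the data, only cells 699 to 719 gave 4647 higher genes, a *Pomc* ratio of 1.59 and a *Vgf* ratio of 0.473, and without these cells 3266 genes were lower and the *Ctss* ratio was 10.1. Within cells 699 to 719 the median log2 ratio of all genes was 0.92. Results below 2-fold with all cells are left out here, although some of them turned, such as *Cartpt* (0.630 with all cells and 2.39 within cells 699 to 719). Directions are read against a ratio of 1 and not against the median of all genes. By this reading, within these cells the direction turned for *Cnpy2* (1.67), *Atp6ap1* (1.52), *Scg5* (2.47), *Pon2* (0.445), *Pdyn* (1.04), *Sst* (0.217), *Oprl1* (1.88), *Ndufb2* (37.5), *mt-Nd3* (0.712), *Rims1* (0.240), *Stx3* (0.0951) and *Scn2b* (9.55). Without the cells with many microglial genes it turned for *Aif1* (0.874, and 0.818 to 3.71 with 1 cell left out) and the oligodendrocyte median (-0.33). Without HFD cells 638 to 654 it turned for *Pon2* (0.724), *Gpr101* (0.866), *Uqcrc1* (0.924) and *Mbp* (0.908), and without CD cells 658 to 669 for *Ndufb2* (3.47). *Pon2* also turned in summed counts (0.690), without cells of under 1000 genes (0.824) and with 1 cell left out (0.814 to 2.698), and *Ndufs3* in summed counts (0.661), thinned (0.933), without cells of under 1000 genes (0.902) and without cell 693 (0.890, with a range of 0.890 to 2.86 over single cells left out). The cause was not tested. Depth limits genes counted in few cells, for which 1 cell can set the ratio.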
